A study of Magallana angulata with 3 samples.

Results

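In adductor muscle of the Fujian oyster (Magallana angulata), 134 of 28027 gene identifiers were lowest in 1 diploid library (DF), higher in the other diploid library (DM) and higher again in the triploid library (T). These stepwise genes were chosen by their levels alone, on log2(RPKM + 1). RPKM is a read number corrected for the length of the gene and the size of the library. A stepwise gene had a mean of at least 10 and under 1000 RPKM over the 3 libraries, DM at least 1 log2 unit (2-fold) above DF, and T at least 1 log2 unit above DM. The 134 genes were 2.22% of the 6046 genes in that range of mean RPKM. The order DF, DM, T is that of the rule and is no series of time or dose. Because these values chose the genes, the levels and steps below are descriptions, with no test.

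Each label has 1 library. DF and DM are labelled diploid and come from crosses between diploid parents, and T is labelled triploid. The triploids came from the same parents, with the second polar body kept in the egg by a chemical that the labels do not name. All oysters were kept for 1 year at the same temperature and food supply. The labels give neither the meaning of the letters F and M nor the number of animals in a library, and T carries neither letter. Ploidy therefore cannot be told apart from any other difference between single libraries, and no value below has a replicate check. The reads behind the RPKM values were recovered from the values themselves, and the totals lay between 1805591 (DF) and 2137859 (T), with 2057805 for DM. A single read in a gene of 1 kb was worth between 0.468 and 0.554 RPKM. The most abundant gene held 33.84% of DM reads, against 17.55% in DF and 23.90% in T, which lowers the RPKM of all other genes most in DM.

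The adductor is the muscle that closes the shell of a bivalve. In oysters it has a translucent part that closes the shell fast and an opaque catch part that holds it shut for long at little energy cost. A triploid carries an extra set of chromosomes in every cell, and triploid oysters are bred because they are largely sterile and put less of their reserves into gonad. A change in the number of chromosome sets alters the number of copies of every gene together, so a gene that differs between libraries scaled to their totals differs relative to the rest of the transcripts. The files pair no identifier with a gene name, and the RefSeq gene table of this species lists 0 of the 28027. The 134 genes are therefore described by level, size of step, reads, length and identifier number. For the same reason the labelled tissue could not be checked against muscle markers, nor the genes against markers of other cells. In whole tissue, fewer cells of a type and less RNA per cell cannot be told apart.

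The stepwise genes were near 0 in DF, low in DM and moderately abundant in T. In DF they ranged from 0 to 113 RPKM with a median of 0.491, in DM from 2.2 to 489 with a median of 16, and in T from 21.6 to 1213 with a median of 84.7. DF was under 1 RPKM in 80 of the 134 genes, and in 108 of the 6046 genes in range. All 3 libraries were at 10 RPKM or more in 9 stepwise genes. In 88 others DM and T reached that level, and in 37 T alone did. Those 37 genes met the minimum mean only through T, the library in which they were high. The same held for those of the 88 whose DF and DM, with T set to 0, would give a mean under 10 RPKM. CGI_10014057 is an example, with 0.212 RPKM in DF, 11.3 RPKM in DM and 124 RPKM in T. CGI_10025811 is another, with 0 RPKM in DF, 29.8 RPKM in DM and 138 RPKM in T. Both were named after their values were seen, and DM need not be close to 10 RPKM. How many of the 88 depended on T in this way was not counted, so 37 is a lower limit for the 134 genes. The 134 genes held 549 DF reads, 9851 DM reads and 45846 T reads, which is 0.0304%, 0.479% and 2.14% of the totals. The whole range of 6046 genes took 41.7%, 29.8% and 36.2% of the totals, so its order across the libraries was a different one.

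**Figure D1:**
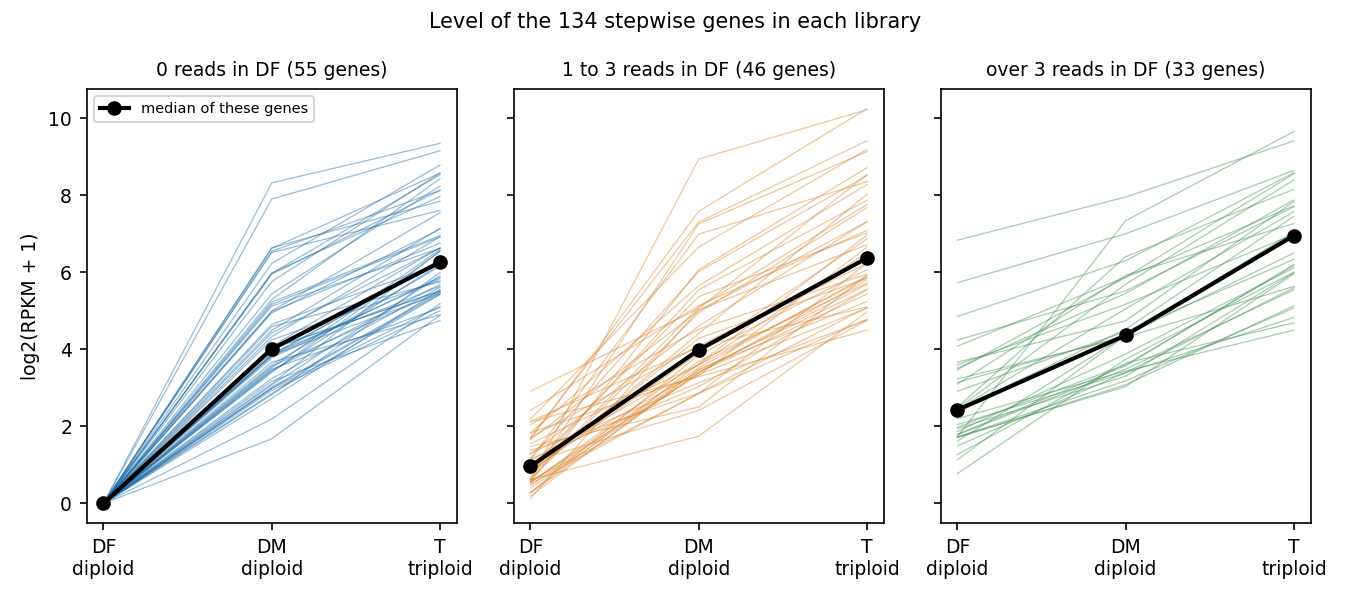
Level of each stepwise gene in DF, DM and T on the log2(RPKM + 1) scale, 1 thin line per gene, with the median as a thick line and the genes parted by their reads in DF. The 55 genes with 0 reads in DF and the 46 with 1 to 3 reads start near the bottom of the scale, and the 33 with more start higher, while all end in a similar range in T.

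Of the 6046 genes, 287 (4.75%) had DM at least 2-fold above DF and 1435 (23.7%) had T at least 2-fold above DM. Both comparisons share the DM library. The 134 stepwise genes were 46.7% of the first list and 9.34% of the second. Among the other genes of the first list, T was within 2-fold of DM in 92 and at least 2-fold below DM in 61. T was at least 2-fold above DF in 455 genes (7.53%), among them all 134 stepwise genes by construction.

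On the log2(RPKM + 1) scale the first step was larger than the second in most genes and varied more, but which step is larger depends on the pseudocount. DM minus DF ranged from 1.03 to 8.33, with a median of 3.23 and quartiles of 2.11 and 4.44. T minus DM ranged from 1.02 to 3.62, with a median of 2.22 and quartiles of 1.74 and 2.65. DM minus DF exceeded T minus DM in 97 genes, and the reverse held in 37. With a pseudocount of 5 in place of 1 the order of the medians turned, to 1.67 for the first step and 1.97 for the second. For the genes without a DF read, the pseudocount sets the size of the first step. The first step was 8-fold or more in 75 genes, 4-fold to 8-fold in 28 and 2-fold to 4-fold in 31. For the second step these counts were 14, 72 and 48. Over all 6046 genes the median was -0.68 for DM minus DF and 0.44 for T minus DM, so on the deposited scale most genes had less in DM than DF. Relative to these shifts, the median of the stepwise genes was 3.92 for the first step and 1.79 for the second.

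**Figure D2:**
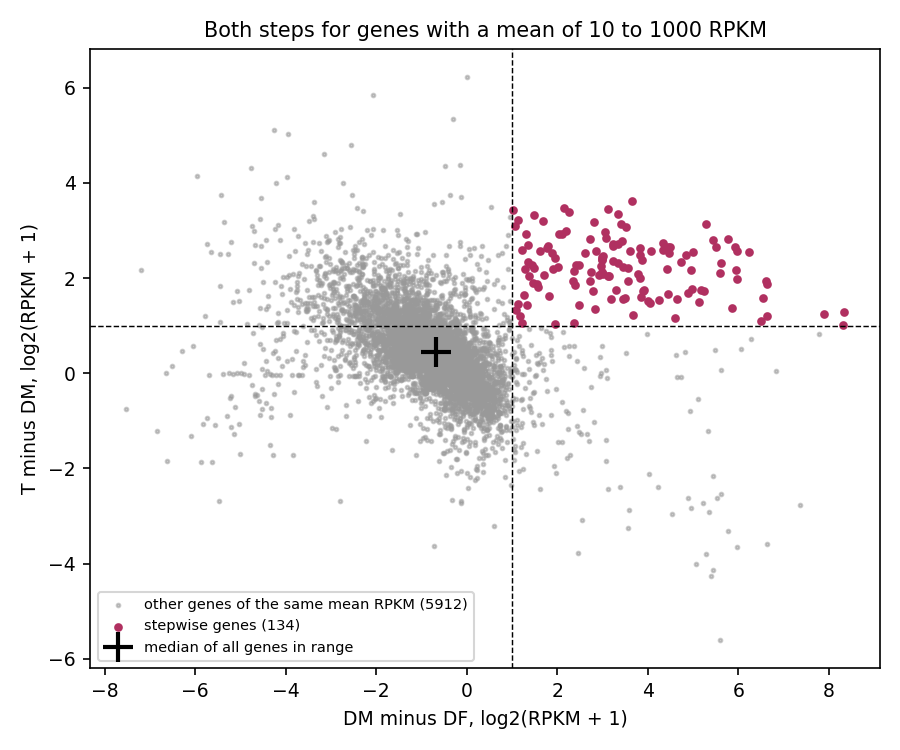
DM minus DF (horizontal) against T minus DM (vertical), both on the log2(RPKM + 1) scale, for all 6046 genes with a mean of 10 to 1000 RPKM. The 134 stepwise genes fill the corner above 1 on both axes by construction, the dashed lines mark that limit, and the median of all genes (cross) lies at -0.68 and 0.44.

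Libraries scaled to other standards shift all genes, and the stepwise genes were recomputed for that reason. Median-of-ratios scaling, which sets the typical gene equal across libraries, moved the median of all 6046 genes to 0.08 for DM minus DF and -0.05 for T minus DM. The median of the 134 genes was then 3.70 for the first step and 1.76 for the second. Relative to all genes these are 3.62 and 1.80, against 3.92 and 1.79 as deposited. With the rule applied anew, 138 genes qualified, of which 116 were among the 134. The 18 genes that no longer qualified all fell short in the second step.

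**Figure D3:**
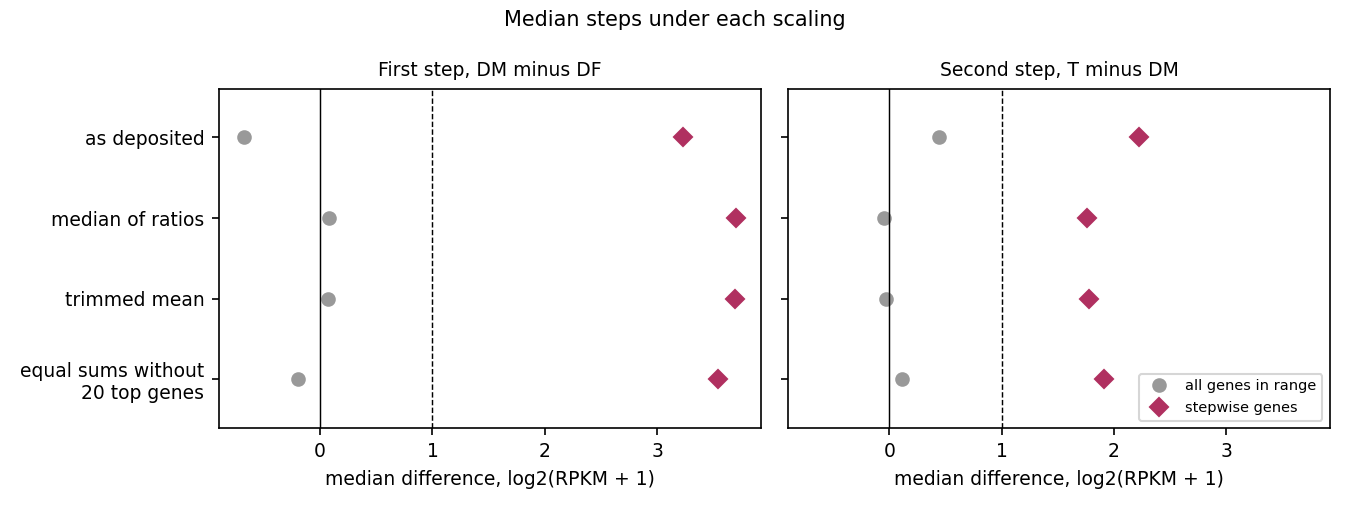
Median DM minus DF (left) and T minus DM (right) on the log2(RPKM + 1) scale under 4 scalings, for all 6046 genes (circles) and the 134 stepwise genes (diamonds). The circles move from -0.68 to 0.08 and from 0.44 to -0.05 between the deposited scale and median-of-ratios scaling, and the diamonds stay to the right of the dashed 2-fold line.

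The same size rule was applied to the other orders of the libraries, as a description of where this order stands. As deposited, 229 genes were at least 2-fold higher at each step from DM to T to DF, 29 from DF to T to DM, 25 from DM to DF to T, 24 from T to DM to DF and 1 from T to DF to DM. After median-of-ratios scaling, which left 5933 genes in range, the order DF, DM, T held the most genes with 138. The order DM, T, DF then held 64, and the others held 40, 35, 15 and 14. The number of genes in the order DF, DM, T thus moved little with the scaling, from 134 to 138, while that of the order DM, T, DF fell from 229 to 64.

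The pair of stepwise genes with the highest means had many reads in DM and T and 1 read each in DF. CGI_10021480 measured 0.524 RPKM in DF (1 read), 489 RPKM in DM (1063 reads) and 1192 RPKM in T (2691 reads), the highest mean of all 134. It was nearly silent in 1 diploid library and among the abundant genes of the other. Its ratio of DM over DF was 933, with a 95% counting interval from 167 to 36874, the widest part of which comes from the single DF read. T over DM was 2.44 (2.27 to 2.62), a small step measured precisely. CGI_10016249 measured 2.17 RPKM in DF (1 read), 191 RPKM in DM (100 reads) and 1213 RPKM in T (661 reads). Here the second step was larger, with T over DM at 6.36 (5.15 to 7.93).

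On the log2(RPKM + 1) scale, the gene with the second largest first step was also the one nearest the limit in the second step. CGI_10028660 measured 0 reads in DF, 319 RPKM in DM (711 reads) and 650 RPKM in T (1505 reads). DM was 208 times a floor of 3 DF reads, and the lower limit of the 95% counting interval for DM over DF was 169. T over DM was 2.04 (1.86 to 2.23), so a second step below 2-fold lay within counting error. After median-of-ratios scaling T minus DM was 0.52 for CGI_10028660 and 0.78 for CGI_10021480, and neither gene met the rule any longer.

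On the log2(RPKM + 1) scale, the largest second steps belonged to a pair of genes with at most 3 reads in DF. CGI_10008131 measured 0.701 RPKM in DF (2 reads), 20.3 RPKM in DM (66 reads) and 260 RPKM in T (879 reads). Its T over DM was 12.8 (95% counting interval 9.98 to 16.7) and its DM over DF 29 (7.7 to 244). CGI_10013080 measured 6.52 RPKM in DF (3 reads), 32.4 RPKM in DM (17 reads) and 371 RPKM in T (202 reads), with T over DM at 11.4 (6.97 to 20) and DM over DF at 4.97 (1.44 to 26.5). For both genes the triploid library stood far above both diploid libraries, and the counting interval of DM over DF also lay above 1. Without a pseudocount the genes ranked otherwise. The ratio T over DM was highest in CGI_10013452, at 13 with 2 reads in DM. It was 12.9 in CGI_10003888, with 5 reads in DM, and some other genes also exceeded 11.4. These genes were named after their values were seen. At the other end, CGI_10013758, named after its values were seen and with a mean of 346 RPKM, had the highest DF level: 113 RPKM in DF (58 reads), 247 RPKM in DM (145 reads) and 679 RPKM in T (414 reads). Its steps were 2.19-fold (1.61 to 3.03) and 2.75-fold (2.27 to 3.34).

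The limit of 1 log2 unit parts genes that hardly differ. Just inside it, besides CGI_10028660, lay CGI_10023901, with 3.38 RPKM in DF (3 reads), 15.8 RPKM in DM (16 reads) and 33.3 RPKM in T (35 reads), whose T minus DM was 1.03. Just outside lay CGI_10008010, with 3.93 RPKM in DF (2 reads), 8.62 RPKM in DM (5 reads) and 26.5 RPKM in T (16 reads), whose DM minus DF was 0.96. The next one outside was CGI_10025485, with 9.08 RPKM in DF (3 reads), 18.6 RPKM in DM (7 reads) and 38.3 RPKM in T (15 reads) and the same DM minus DF of 0.96. With so few reads, these genes cannot be placed on either side of the limit.

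The stepwise genes rested on few reads in DF. There were 0 reads in DF for 55 of them (41%), 1 to 3 reads for 46 (34.3%) and more than 3 for 33 (24.6%). A library with 0 reads was rare otherwise: in the range of 6046 genes, 76 (1.26%) had 0 reads in DF, while 21 had 0 in DM and 16 had 0 in T. Of the 76, 55 (72.4%) were stepwise genes, a share that the rule favours, since it takes genes low in DF. The median stepwise gene had 1 DF read, 33 DM reads and 174 T reads. DM had fewer than 10 reads in 23 genes, and T in 2. For the genes with 0 reads in DF, DM over the 3-read floor ran from 0.292 to 208 with a median of 6.73, and DM was below the floor in 5 of them. With these genes at their floor, the median DM over DF of the 134 genes was 7.59-fold, or 2.92 on the log2 scale.

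Counting intervals show how many reads stood behind each step. They are descriptions too, since the rule had already chosen genes with large ratios in the same reads. The 95% counting interval of DM over DF lay above 1 in 118 of the 134 genes, and that of T over DM in 131. Over the 6046 genes, the size rule with this interval held for 256 genes (4.23%) in the first step and 1268 (21%) in the second. Both held for 117 stepwise genes (1.94% of the range). Both intervals lay above 2 in 76. The 17 genes that missed in at least 1 step had a median mean level of 20 RPKM, against 33.7 for all 134, and 2 of them missed in both steps. These intervals cover the counting of reads only, and not differences between animals or between library preparations.

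The median ratio of T over DM differed little between genes with more and with fewer reads in DF. Its median was 4.78 in the 55 genes with 0 reads in DF (quartiles 3.21 and 6.44), 5.2 in the 46 with 1 to 3 reads (3.74 and 6.47) and 4.92 in the 33 with more (3.6 and 6.38). The lowest ratios were 2.04, 2.11 and 2.16, since the rule cut every class at about 2-fold. Likeness between the classes is therefore partly built in. The ratio of the summed reads was 4.26 (95% counting interval 4.1 to 4.44), 4.43 (4.27 to 4.58) and 4.75 (4.57 to 4.93) in these classes. The sums weigh abundant genes most, and by that measure the class with more DF reads lay above the class with none. The median DM level was also close in the first and second class, at 15.1 and 14.9 RPKM, and 19.6 in the third. Expressed as a share of T, DM ranged from 7.7% to 49.1%, with a median of 20.1% and quartiles of 15.5% and 28.9%. It was between 10% and 40% in 113 of the 134 genes, and the rule itself sets its upper bound.

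A single ratio did not describe all genes, however. Over the summed reads of the 134 genes, T over DM was 4.48 (95% counting interval 4.38 to 4.58). The counting interval of 75 genes held this value, while 36 genes lay above it and 23 below. For DM over DF the summed ratio was 15.7 (14.4 to 17.2), which the intervals of 92 genes held, with 18 above and 24 below. The intervals of the first step are wide because of its few DF reads. A few genes carried much of the signal: the 10 with the most reads made up 44% of the stepwise reads in DM and 38.9% in T.

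**Figure D4:**
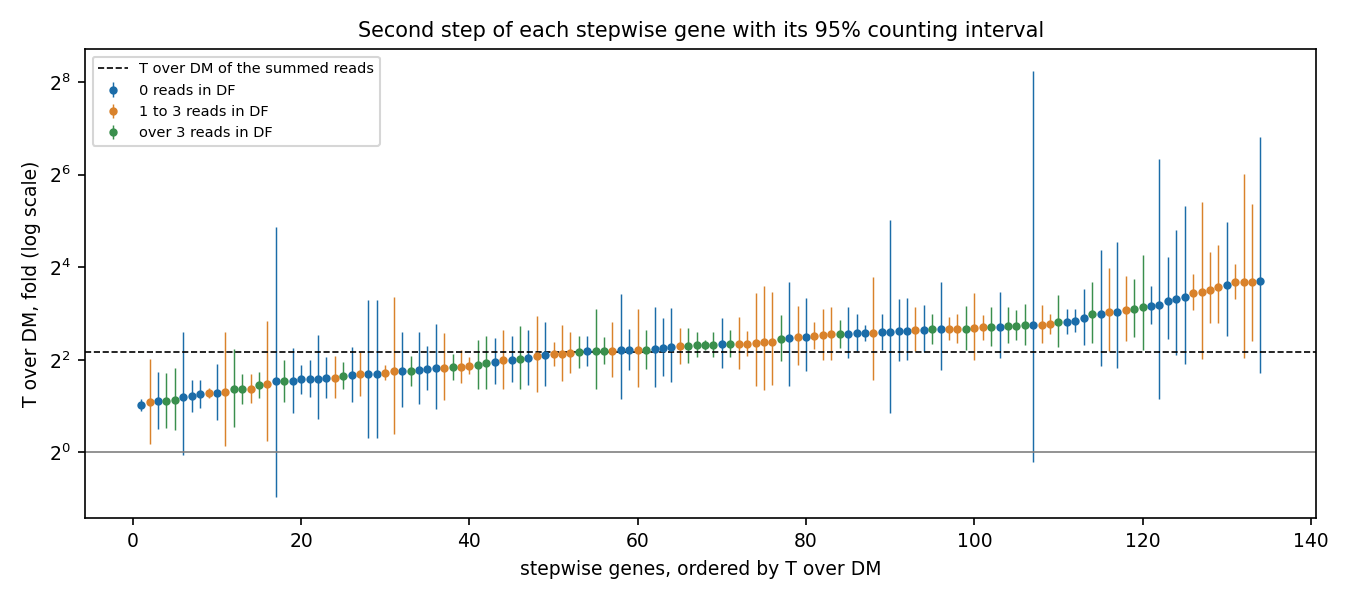
T over DM of each of the 134 stepwise genes (log scale), ordered by size, with the 95% counting interval as a bar and the colour giving the reads in DF. The dashed line is the ratio of the summed reads, 4.48; 75 of the intervals hold it, and the 3 classes of DF reads are mixed along most of the range.

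Gene length, which the rule did not use, was similar to that of other genes. The recovered length had a median of 798 nt in the stepwise genes (quartiles 448 and 1457) and of 837 nt in the 6046 genes in range (483 and 1386). It is a lower limit, since reads and length are recovered only up to a factor that both may share. The mean level of the stepwise genes was also near that of the range, with a median of 33.7 against 27.4 RPKM. The upper quartile was higher, at 92.2 against 58.9 RPKM. A mean of at least 100 RPKM was reached by 29 of the 134 genes. The mean was under 100 RPKM in the other 105, and in 5154 of the 6046 genes in range.

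Some stepwise genes carried consecutive identifier numbers. There were 8 such runs, 2 of 3 genes and 6 of 2 genes, holding 18 of the 134 genes (13.4%). Each stepwise gene was paired with each gene in range whose number was next to its own. In 20 of these 77 pairs (26%) the neighbour was stepwise as well. For all genes in range the share was 77 of 3656 pairs (2.11%). Within 5 numbers the shares were 44 of 363 (12.1%) and 363 of 14956 (2.43%). How the identifiers were numbered is not given in the sources used here, so closeness in number is not stated as closeness in the genome. Whether genes of a run share reads through similar sequence was not tested.

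In the run with the highest mean, all 3 genes showed the 2 steps at different levels. CGI_10013053 measured 0 reads in DF, 9.78 RPKM in DM (27 reads) and 72.9 RPKM in T (209 reads). CGI_10013054 measured 3.55 RPKM in DF (1 read), 99.7 RPKM in DM (32 reads) and 582 RPKM in T (194 reads). CGI_10013055 measured 2.32 RPKM in DF (11 reads), 161 RPKM in DM (872 reads) and 805 RPKM in T (4523 reads), the most reads in T of all 134 genes. Their T over DM was 7.45 (95% counting interval 4.98 to 11.6), 5.84 (4 to 8.77) and 4.99 (4.64 to 5.37), with intervals that overlap. The number before the run, CGI_10013052, was highest in DF, with 566 RPKM in DF, 266 RPKM in DM and 359 RPKM in T. Only its first step went the other way. The number after it, CGI_10013056, had 1 read in T and 0 in the others.

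The other run of 3, named after its values were seen, was shaped alike. CGI_10026111 measured 0 reads in DF, 74.2 RPKM in DM (33 reads) and 440 RPKM in T (203 reads). CGI_10026112 measured 0 reads in DF, 36.4 RPKM in DM (18 reads) and 123 RPKM in T (63 reads). CGI_10026113 measured 2.15 RPKM in DF (2 reads), 31.1 RPKM in DM (33 reads) and 158 RPKM in T (174 reads). Their T over DM was 5.92 (4.08 to 8.83), 3.37 (1.97 to 6.05) and 5.08 (3.48 to 7.6). CGI_10026110 just before had 0.471, 0.413 and 5.97 RPKM in DF, DM and T, and so was higher in T alone. CGI_10026114 just after had 15, 3.29 and 4.76 RPKM, and was highest in DF.

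**Figure D5:**
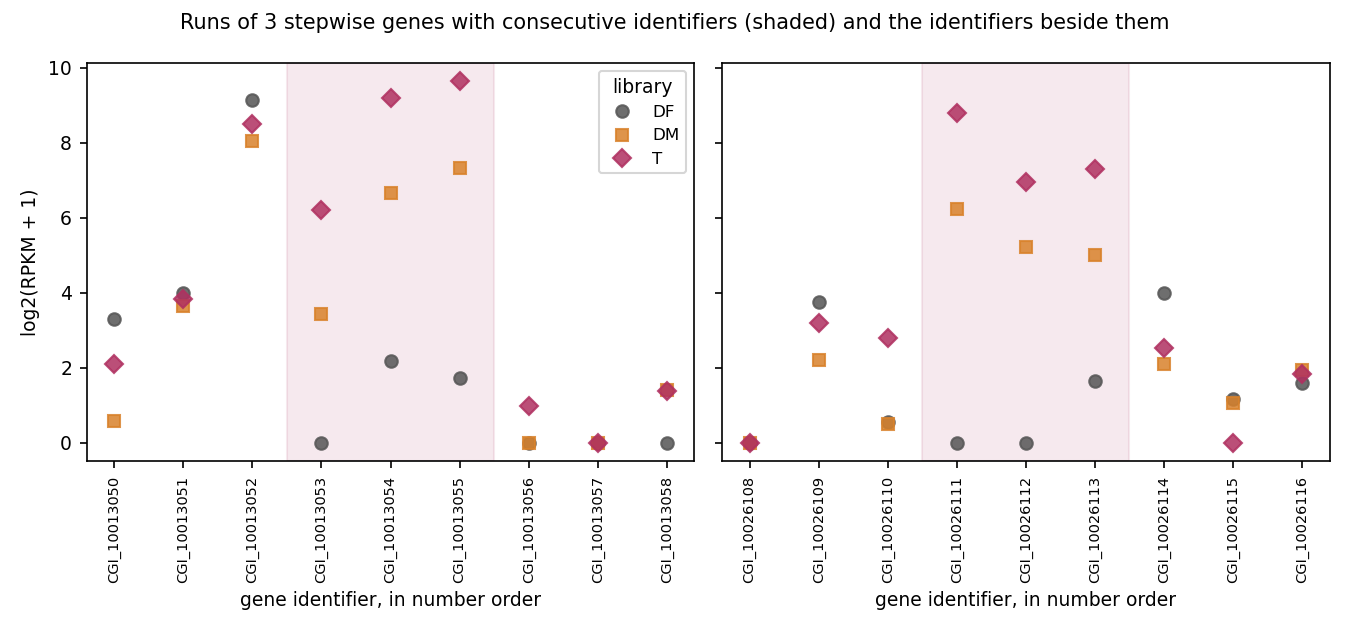
Level on the log2(RPKM + 1) scale in DF, DM and T for the runs of 3 stepwise genes with consecutive identifiers (shaded) and the 3 identifiers on either side. In both shaded stretches the symbols stand apart in the order DF, DM, T, and none of the identifiers beside them has DM and T each at least 2-fold above the library before it.

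Genes beside the stepwise genes in number, but outside the rule, were set against the 5912 genes of the range that were not stepwise. There were 57 of them in range at a distance of 1. Their median DM minus DF was -0.62 and their median T minus DM 0.43, against -0.71 and 0.42 over the 5912 genes. T was at least 2-fold above DM in 20 of the 57 (35.1%), against 1301 of the 5912 (22%). DM was at least 2-fold above DF in 0 of the 57, against 153 of the 5912 (2.59%). Within 5 numbers, 79 of 284 such genes (27.8%) had T at least 2-fold above DM and 11 (3.87%) had DM at least 2-fold above DF. With 1 library per label, these shares are descriptions without a test.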

How the data were processed

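Adductor muscle RNA was measured in 3 libraries, 1 per label. Per the labels' protocols, mRNA was captured with oligo(dT) and prepared with Illumina's kit for digital gene expression. The authors deposited 1 table of RPKM per library; the submitters' processing notes name TopHat. The counting program and the genome build were not given in the sources used here. Whether reads came from whole transcripts or from tags is not stated either, and RPKM divides by length in both cases. The tables were joined on the identifier.

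Read totals were recovered from the commonest ratio between libraries and the spacing of low values, with lengths taken in multiples of 3 nt. All 19931 genes above 0 then had whole reads, within rounding. Larger candidate totals, of 3611182 and 5416773 in DF, also gave whole reads for every gene, so this does not set the depth. The totals used are those whose reads came closest to the total without passing it, at 97.46% in DF, 98.03% in DM and 97.64% in T. The larger ones gave 80.12% and 79.03% in DF. Recovered reads are a lower limit. Intervals are 95% exact (Clopper-Pearson for a ratio) and cover counting error only. A floor of 3 reads replaced 0 in ratios. There are no replicates, so no p-value was computed. Depth recovery, intervals and size rule were run on simulated data. The simulated libraries had nearly all of their total in genes, which is also how the totals were picked. They therefore cannot check the choice of totals, and the coverage of the intervals was not checked. Python 3.11.15, numpy 2.4.6, pandas 2.3.3 and scipy 1.17.1 were used.

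The genes, the rule and the alternatives were chosen with earlier results of these data known. Identifiers named are, per description, at most 2: highest mean, largest first and second step, just inside and just outside the limit, and the longest run of consecutive numbers. Alternatives were other pseudocounts, scalings, limits of mean and fold, and the counting interval.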

Additional observations from a re-analysis of the deposited data

How the results depend on the processing

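No paired analysis was possible because there is a single library for each label, without replicate numbers. Of 43 recomputed counts, 24 stayed within 1.5 times the main value. Scaling moved the counts of genes past each single step. The first step (287 genes) held 919 genes under median-of-ratios scaling, 903 under trimmed mean scaling and 542 with equal sums without the 20 most abundant genes. The second step (1435) held 681, 697 and 862. These scalings gave 138, 139 and 135 stepwise genes, of which 116, 117 and 122 were among the 134. Limits moved counts by their construction, given here as first step, second step and both. A mean of at least 1 RPKM gave 797, 3648 and 206, and one of at least 50 RPKM gave 87, 333 and 53, with 52 past counting error in both steps. A fold limit of 4 gave 174, 337 and 66, with 62 past counting error, and a limit of 1.5 gave 480 and 2514 for the single steps. The median first step (3.23) was 5.37 with a pseudocount of 0.1, 1.67 with 5, 2.32 at a mean of at least 1 RPKM and 4.49 at 50. The median second step stayed within 1.5 times throughout. Of 110 recomputed steps of 11 named genes, 88 kept their side of the limit, 14 fell below it, 8 passed it and 0 changed sign. Depth limits the first step most, since most of these genes had at most 3 reads in DF.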
